A study of Homo sapiens with 29 samples.

Results

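The genes described here encode titin, nebulin and the proteins of the Z-disc and M-band, together with the proteins that cap, attach, fold and turn over the filaments of the sarcomere. They were taken as a fixed list of 45 gene names, set by the role of the gene and not by a cutoff on measured values. Earlier results of these data were known when the list was drawn up. Of the 45, 43 had a probe on the array that a RefSeq accession named, and all 43 were well above background on at least 2 of 29 arrays and were tested among 18338 genes. ACTN2 and LMOD3 had no probe named in this way and were not analysed here. Each gene is given by 1 probe, so signals are compared between arrays for the same gene and never between genes.

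The sarcomere is the repeating contractile unit of striated muscle. Z-discs form its borders and anchor the actin thin filaments, whereas the M-band at its middle links the myosin thick filaments. Titin spans from Z-disc to M-band as a molecular spring and scaffold, and nebulin runs along the thin filament. Myoblasts that leave the cell cycle and fuse to myotubes switch on most of these genes as they build myofibrils.

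LHCN-M2 cells, an immortalized line of human skeletal myoblasts, were transfected with siRNA to ZNF148, a zinc finger transcription factor, or with a nontargeting siRNA, each at 20 nM. In growth media, subconfluent cells were collected at 24 h and confluent cells at 48 h or 96 h. Further cultures were collected after 48 h or 96 h in differentiation media, which is depleted of growth factors. The 10 groups had 3 arrays each, apart from the 96 h growth media group with nontargeting siRNA, which had 2, and the labels name the arrays of a group biological replicates. All groups shared the same line and the same siRNA dose, so the data describe 1 cell line, and the labels do not say whether the siRNA was 1 sequence or a pool. The study asked whether loss of ZNF148 sets off muscle differentiation. RNA was measured per culture, so fewer differentiated cells and less RNA per cell cannot be told apart.

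Signals are log2 values after quantile normalization, and a gene was called higher or lower where the adjusted p was below 0.05 and the change exceeded 2-fold. Groups without overlap were common among all 18338 genes tested. All ZNF148 siRNA arrays lay above, or all below, the nontargeting arrays for 5124 and 5094 genes at 24 h. In growth media these numbers were 5404 and 6151 at 48 h, and 6541 and 7266 at 96 h. In differentiation media they were 6068 and 6842 at 48 h, and 5247 and 6815 at 96 h. ZNF148 itself was between 8.51 and 9.83 on the 14 arrays with nontargeting siRNA and between 6.53 and 7.29 on the 15 arrays with ZNF148 siRNA, and it was called lower in all 5 knockdown comparisons. Of 8 myoblast and myocyte markers, MYOD1, MYF5, CDH15 and DES were well above background on all arrays. With MYOG, NCAM1, CHRNA1 and PAX7 included, 6 to 8 of the 8 were above background on single arrays. Replicate 1 of nontargeting siRNA at 48 h in growth media stood apart, with a median of 10.95 over the 43 genes, against 5.98 and 5.87 on the other 2 arrays of its group. Its ZNF148 signal of 8.51 was the lowest of the 14 nontargeting arrays, against 8.85 and 9.19 on the other 2 of its group. That signal was still above every array with ZNF148 siRNA. Why this array stood apart was not tested. The array widened the error of many of the genes in every comparison, because 1 fit over all arrays shared the spread, so counts without it are given where they differ. The arrays at 24 h were all on 1 slide, and the other arrays were on 3 other slides.

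RefSeq promoter windows were at hand for 36 of the 43 genes, 56 windows in all on GRCh38.p14. The 250 bases before the annotated start are shown for titin, nebulin and 3 further genes that rose with ZNF148 siRNA. The 3 further genes were picked from a larger number that each had 1 window with a match to the MEF2 site described below. The matches in the 3 windows shown are therefore examples and not a result. Sequences run 5′ to 3′ on the strand of the gene, and capitals mark the E-box letters CANNTG, the core bound by MYOD1 and its relatives, and the site of the MEF2 factors. Both motifs read the same on either strand, and in these 5 windows no match of 1 overlapped a match of the other.
TTN (chr2:178807424-178807673, minus strand): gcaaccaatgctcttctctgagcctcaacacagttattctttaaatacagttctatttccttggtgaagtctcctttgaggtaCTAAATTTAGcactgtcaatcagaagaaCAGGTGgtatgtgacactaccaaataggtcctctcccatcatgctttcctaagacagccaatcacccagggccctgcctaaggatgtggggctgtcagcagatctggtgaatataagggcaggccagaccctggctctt
NEB (chr2:151734477-151734726, minus strand): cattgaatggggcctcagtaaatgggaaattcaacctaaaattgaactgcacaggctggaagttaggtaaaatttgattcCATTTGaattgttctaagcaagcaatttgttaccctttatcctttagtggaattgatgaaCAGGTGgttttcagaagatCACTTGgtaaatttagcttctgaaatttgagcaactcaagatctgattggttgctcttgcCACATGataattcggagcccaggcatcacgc
MYOZ1 (chr10:73641475-73641724, minus strand): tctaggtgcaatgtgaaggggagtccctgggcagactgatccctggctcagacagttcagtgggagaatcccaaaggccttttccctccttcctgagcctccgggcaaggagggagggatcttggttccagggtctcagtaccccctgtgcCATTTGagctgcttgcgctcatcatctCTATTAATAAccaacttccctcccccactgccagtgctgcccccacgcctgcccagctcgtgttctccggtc
KLHL40 (chr3:42685287-42685536, plus strand): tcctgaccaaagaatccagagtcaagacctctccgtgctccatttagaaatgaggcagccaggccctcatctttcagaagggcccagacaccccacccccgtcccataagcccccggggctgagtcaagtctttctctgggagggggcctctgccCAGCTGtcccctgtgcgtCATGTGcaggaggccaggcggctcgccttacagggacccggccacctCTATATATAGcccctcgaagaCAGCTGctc
SMPX (chrX:21758117-21758366, minus strand): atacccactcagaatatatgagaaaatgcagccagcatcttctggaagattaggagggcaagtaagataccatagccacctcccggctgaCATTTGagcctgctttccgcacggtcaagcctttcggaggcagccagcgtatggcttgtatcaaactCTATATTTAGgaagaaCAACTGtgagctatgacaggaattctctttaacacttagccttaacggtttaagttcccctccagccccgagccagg

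The MEF2 letters began 167 bases before the start of TTN, 72 before MYOZ1, 93 before SMPX and 30 before KLHL40, and the NEB window held none. NEB instead held 4 E-boxes, the nearest beginning 31 bases before the start, and KLHL40 held 3. Over the whole list, 11 of 56 windows (19.6%) held the MEF2 letters, against 2.8% of the 35116 windows of all genes. E-box letters were in 44 of 56 windows (78.6%) and in 61.8% of all windows. These are matches of letters, and binding was not measured.

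At 24 h the scaffold genes had hardly moved with ZNF148 siRNA. The median change over the 43 genes was -0.11, with 1 gene called higher and 2 called lower, against 2.46% and 3.08% of all genes tested. In the nontargeting group, 15 of the 43 genes were not well above background on any array. MYOZ3, a calcineurin-binding calsarcin of the Z-disc, rose from 5.58, 5.89 and 5.78 on the nontargeting arrays to 7.18, 6.95 and 6.60, a change of 1.16 (SE 0.141, adjusted p = 2.54e-06). OBSL1, a cytoskeletal adaptor that ties titin and myomesin together, fell from 12.39, 12.32 and 12.36 to 11.14, 11.21 and 11.20, a change of -1.17 (SE 0.311, adjusted p = 0.00762). Both genes had their groups fully apart. A second OBSL1 probe, above background on all 29 arrays, read 0.12 at 24 h (adjusted p = 0.754), so the fall was seen with 1 of 2 probes. IGFN1, an immunoglobulin-like muscle protein, was called lower but was not well above background on any ZNF148 siRNA array, so it was at least 1.11-fold lower. Without the array that stood apart, 4 genes were called higher at 24 h (MYOZ3, ANKRD1, ANKRD2 and MYBPH) and 3 lower (OBSL1, IGFN1 and MYOT), against 2.7% and 3.17% of all genes. MYOT was below background in both groups at 24 h and has no fold.

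From 48 h on, most of the list was higher with ZNF148 siRNA in both media. In growth media 35 of 43 genes were called higher and 1 lower at 48 h, and 36 were called higher and 1 lower at 96 h. Of all genes tested, 11.7% were called higher and 12.3% lower at 48 h, and 12.3% and 12.5% at 96 h. In differentiation media the counts were 36 higher and 1 lower at 48 h, against 15.2% and 17.4% of all genes, and 28 higher and 2 lower at 96 h, against 10.5% and 12.8%. Once the array that stood apart was left out, 34 were called higher and 2 lower at 96 h in differentiation media, and the counts at 96 h in growth media and 48 h in differentiation media were as given. The median change over the list was 4.56, 4.82, 4.80 and 2.43 in these 4 comparisons, whereas that of all genes lay between -0.06 and -0.03. The 97 called rises with every array of both groups above background ranged from 2.39-fold (MYOZ3 at 96 h in differentiation media) to 956-fold (CSRP3 at 48 h in differentiation media). Of the 43 genes, 25 were called higher in all 4 comparisons, 9 in 3, 3 in 2, 2 in 1 and 4 in none.

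The median signal of the list shows the same on each array. It was between 12.44 and 12.60 on the arrays with ZNF148 siRNA at 48 and 96 h in growth media and between 12.85 and 13.20 in differentiation media. With nontargeting siRNA it was 7.04 and 7.09 at 96 h in growth media, 7.31 to 8.28 at 48 h in differentiation media and 8.83 to 9.11 at 96 h. No array of ZNF148 siRNA from 48 h on fell below any nontargeting array in this median, the one that stood apart included.

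**Figure D1:**
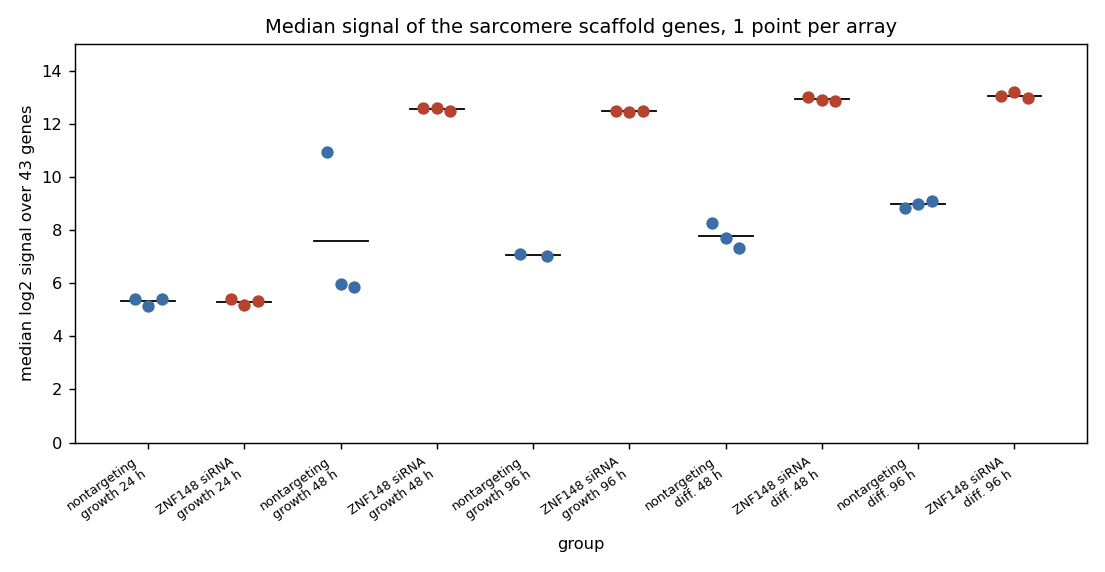
Median quantile-normalized log2 signal over 43 sarcomere scaffold genes (vertical axis) in each of 10 groups (horizontal axis), 1 point per array, blue for nontargeting siRNA and red for ZNF148 siRNA, with the group mean as a line. The 12 red points from 48 h on sit between 12.44 and 13.20, above every blue point, and the highest blue point, at 10.95, is the array that stood apart.

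**Figure D2:**
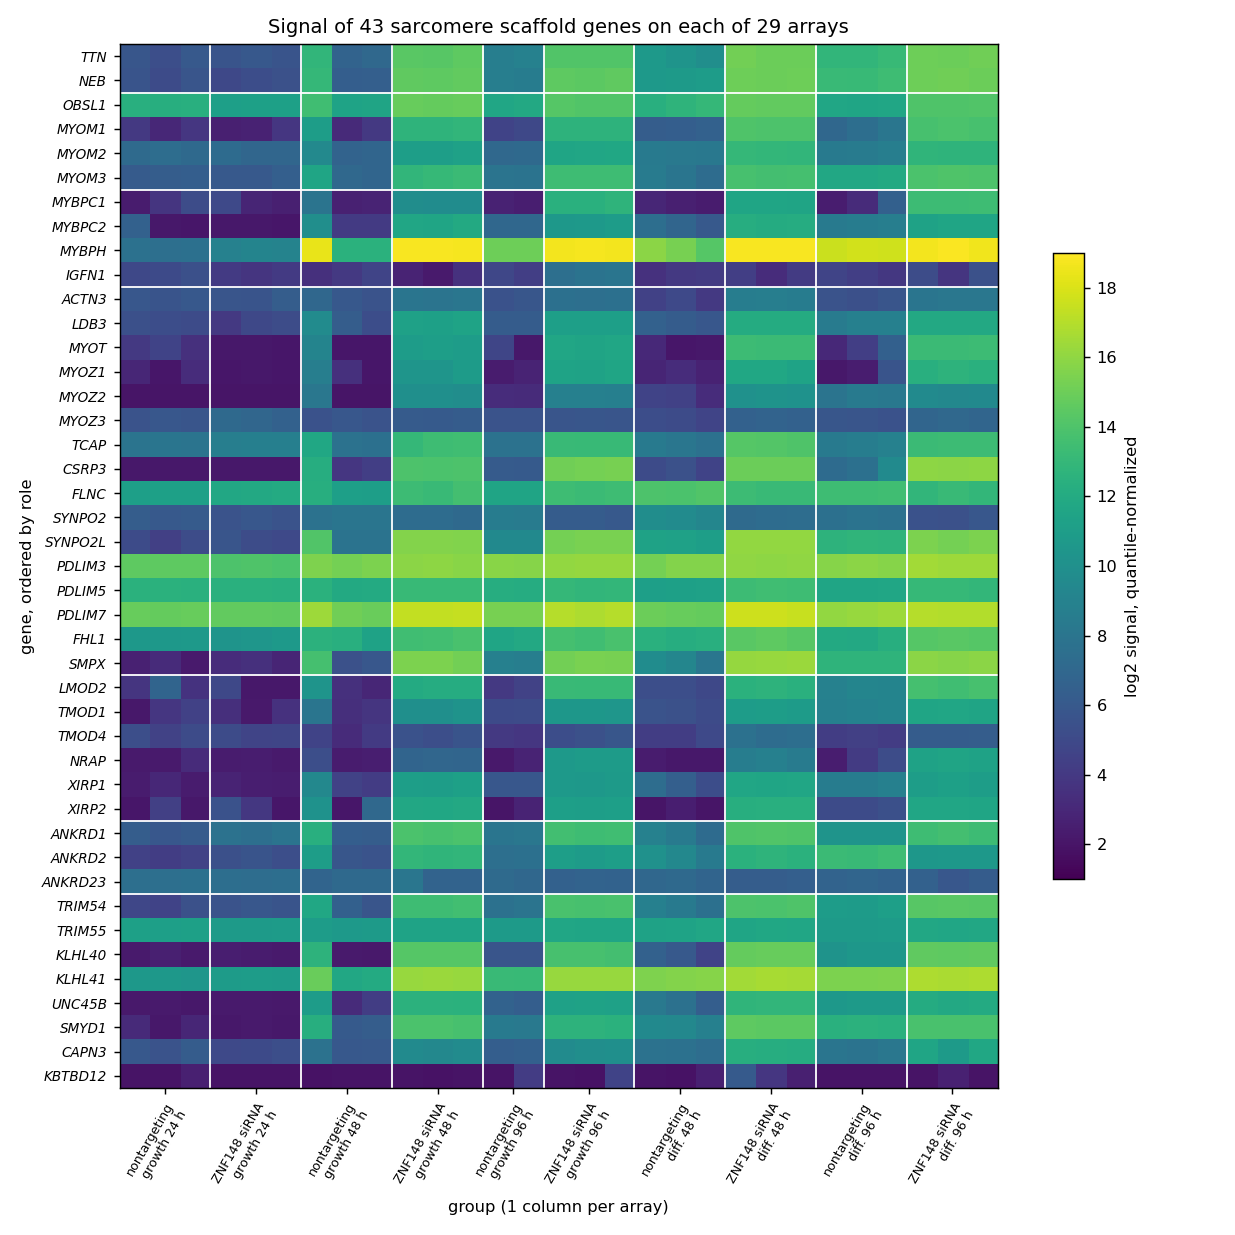
Quantile-normalized log2 signal (colour) of 43 genes (rows, ordered by role) on 29 arrays (columns, ordered by group). Most rows turn from dark to bright with ZNF148 siRNA from 48 h on, and the first column of nontargeting siRNA at 48 h in growth media is bright in the same rows.

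The comparison at 48 h in growth media rested in part on that array. Leaving it out, 36 genes were called higher and 1 lower, against 13% and 14.1% of all genes, and the median change rose from 4.56 to 6.28. Within slides, the median change was 1.53 on the slide that held it and 6.22 and 6.04 on the other 2. At 96 h in growth media only 1 slide held both groups, and its median change was 4.75. In differentiation media the medians within slides were 5.30, 4.49 and 4.76 at 48 h and 2.48 and 2.35 at 96 h.

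Both giant filament genes rose with ZNF148 siRNA from 48 h on in growth media and at 48 h in differentiation media. TTN read 8.72 and 8.89 on the nontargeting arrays at 96 h in growth media and 14.08, 14.12 and 14.12 with ZNF148 siRNA, a 39.5-fold rise (log2 change 5.30, SE 0.997, adjusted p = 0.000137). NEB read 8.69 and 8.56 against 14.54, 14.46 and 14.58, a 59.8-fold rise (log2 change 5.90, SE 1.10, adjusted p = 0.000122). At 96 h in differentiation media neither was called, although no array overlapped: TTN read 12.88, 12.84 and 13.12 with nontargeting siRNA and 15.05, 14.95 and 15.07 with ZNF148 siRNA (adjusted p = 0.0607). NEB differed there by 1.78 (SE 0.982, adjusted p = 0.148). Without the array that stood apart both were called, with adjusted p of 2.27e-09 for TTN and 9.87e-10 for NEB.

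With the probes described here, all 4 M-band genes were called higher in each comparison from 48 h on. A second OBSL1 probe read 0.86 at 48 h in differentiation media and was not called. A second MYOM3 probe read 2.35 at 96 h in differentiation media and was not called (adjusted p = 0.108). Both second probes were called higher in the other comparisons from 48 h on. MYOM1, MYOM2 and MYOM3 encode myomesins, which bridge neighbouring myosin filaments. MYOM3 rose from 7.90 and 7.84 to 13.42, 13.39 and 13.42 at 96 h in growth media (46.4-fold, log2 change 5.54, SE 0.790). MYOM2, the myomesin of fast adult fibres, rose from 7.09 and 7.17 to 11.55, 11.64 and 11.71 (22.7-fold, log2 change 4.50, SE 0.451). OBSL1, lower at 24 h with the same probe, rose from 11.62 and 11.85 to 14.23, 14.12 and 14.10 (5.34-fold, log2 change 2.42, SE 0.348). Groups did not overlap in any of these, as was the case for 6541 genes upward and 7266 downward among all 18338 tested. MYOM1 changed by 7.86 and was above background on 1 of the 2 nontargeting arrays. In differentiation media at 96 h the rises were 6.26 for MYOM1, 4.22 for MYOM2, 2.15 for MYOM3 and 2.43 for OBSL1.

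The myosin-binding genes rose together at 96 h in growth media, 4 of 4, and 2 of 4 were called at 96 h in differentiation media. MYBPC1, the slow-fibre form of myosin-binding protein C, was not well above background on either nontargeting array at 96 h in growth media and was at least 340-fold higher with ZNF148 siRNA (adjusted p = 5.75e-07). MYBPC2, the fast-fibre form, rose from 6.99 and 7.04 to 10.60, 10.68 and 10.95 (13.3-fold, log2 change 3.73, SE 1.23). MYBPH, a shorter relative, rose from 15.03 and 15.02 to 18.67, 18.73 and 18.67 (12.7-fold, log2 change 3.67, SE 1.00). The slow and the fast form thus both rose. At 96 h in differentiation media MYBPC1 changed by 9.33, with 1 of 3 nontargeting arrays above background, and MYBPC2 by 2.96, whereas MYBPH differed by 1.06 and was not called (adjusted p = 0.361). Its change was the same and it was called without the array that stood apart (adjusted p = 0.00054). MYBPH was already at 17.53, 17.79 and 17.69 on the nontargeting arrays there.

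Of the 16 measured Z-disc genes, 12 were called higher and 1 lower at 96 h in growth media. CSRP3, the muscle LIM protein, was among the largest rises, from 6.18 and 6.07 to 15.10, 15.25 and 15.28 (543-fold, log2 change 9.08, SE 1.40, adjusted p = 1.32e-05). SMPX, a small protein of costameres and Z-discs, rose from 8.82 and 8.67 to 15.18, 15.40 and 15.32 (94.2-fold, log2 change 6.56, SE 1.36). SYNPO2L, an actin-binding protein also known as CHAP, rose from 9.54 and 9.55 to 15.26, 15.38 and 15.35 (55.1-fold, log2 change 5.78, SE 1.05). The groups were fully apart for all 3. MYOT and MYOZ1 were below background with nontargeting siRNA, and the rises were at least 173-fold for MYOT, myotilin, and at least 162-fold for the calsarcin MYOZ1. MYOZ2, the slow-fibre calsarcin, was at least 26.3-fold higher.

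Other Z-disc partners changed less. TCAP, the titin cap telethonin, changed by 5.38 and LDB3, the PDZ-LIM protein ZASP, by 4.90 at 96 h in growth media. FHL1, a protein built of LIM domains, changed by 1.97 and ACTN3, the fast-fibre alpha-actinin, by 1.94. PDLIM7, another PDZ-LIM protein, changed by 1.63, but 2 further probes of this gene read -0.57. At 48 h the probes were called in opposite directions, with changes of 1.96 against -1.12 and -1.36 in growth media and of 2.74 against -2.23 and -2.25 in differentiation media, so the probes did not give 1 direction for this gene. PDLIM5 differed by 0.76 in growth media and was not called, and it rose by 2.20 and 1.41 at 48 and 96 h in differentiation media. Its 2 other probes were called higher at 96 h in growth media, at 2.10 and 3.79, so the gene's probes did not give the same call.

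Every one of the 6 measured genes of thin filament length and attachment was called higher in all 4 comparisons from 48 h on. TMOD1, which caps the pointed end of actin filaments, rose from 5.01 and 5.13 to 10.52, 10.52 and 10.48 at 96 h in growth media (43.2-fold, log2 change 5.43, SE 0.840). XIRP1, a Xin repeat protein that binds actin, rose from 5.88 and 5.86 to 10.68, 10.62 and 10.80 (28.5-fold, log2 change 4.83, SE 0.900). LMOD2, a leiomodin that elongates thin filaments, changed by 8.88, with 1 of 2 nontargeting arrays above background. Another 3 were bounded from below because no nontargeting array was above background. XIRP2 was at least 132-fold higher, NRAP, which helps to assemble myofibrils at their ends, at least 105-fold, and TMOD4, the tropomodulin of fast fibres, at least 2.46-fold.

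The ankyrin repeat proteins, which bind titin in the I-band, went 3 ways. ANKRD1 rose from 8.03 and 8.12 to 13.53, 13.38 and 13.48 at 96 h in growth media (42.0-fold, log2 change 5.39, SE 1.02), and its change at 96 h in differentiation media was 3.15. ANKRD2 rose from 7.57 and 7.65 to 11.06, 10.88 and 11.07 at 96 h in growth media (10.6-fold, log2 change 3.40, SE 0.917). ANKRD23 was called in no knockdown comparison. ANKRD2 was reversed in differentiation media between 48 and 96 h. At 48 h it read 10.13, 9.38 and 8.44 with nontargeting siRNA and 12.47, 12.70 and 12.49 with ZNF148 siRNA, and it was called higher (log2 change 3.24, adjusted p = 0.00187). At 96 h the nontargeting arrays read 13.26, 13.21 and 13.43 and the ZNF148 siRNA arrays 10.51, 10.59 and 10.61, so it was 6.64-fold lower (log2 change -2.73, SE 0.820, adjusted p = 0.0084). The groups did not overlap at either time.

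Of the 8 genes for ligases, chaperones and turnover, 6 were called higher at 96 h in growth media. KLHL40, which stabilizes nebulin and leiomodin, rose from 5.78 and 5.74 to 13.78, 13.79 and 13.64 (252-fold, log2 change 7.98, SE 1.74, adjusted p = 0.00062). TRIM54, the ubiquitin ligase MuRF3, rose from 7.68 and 7.91 to 13.84, 13.79 and 13.85 (65.5-fold, log2 change 6.03, SE 0.959). UNC45B, the myosin chaperone of striated muscle, rose from 6.67 and 6.39 to 11.33, 11.40 and 11.32 (28.2-fold, log2 change 4.82, SE 1.23). None of these 3 had overlapping groups. SMYD1, a methyltransferase needed for thick filament assembly, changed by 4.23, the titin-bound protease CAPN3 by 3.39 and KLHL41, the relative of KLHL40, by 3.06. At 96 h in differentiation media UNC45B and SMYD1 differed by 1.23 and 1.34 and were not called, and both were called without the array that stood apart. KBTBD12 was above background on at most 1 array of any group, and its only call in a knockdown comparison, at 48 h in differentiation media, came with 1 of 3 ZNF148 siRNA arrays above background (at least 1.16-fold).

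**Figure D3:**
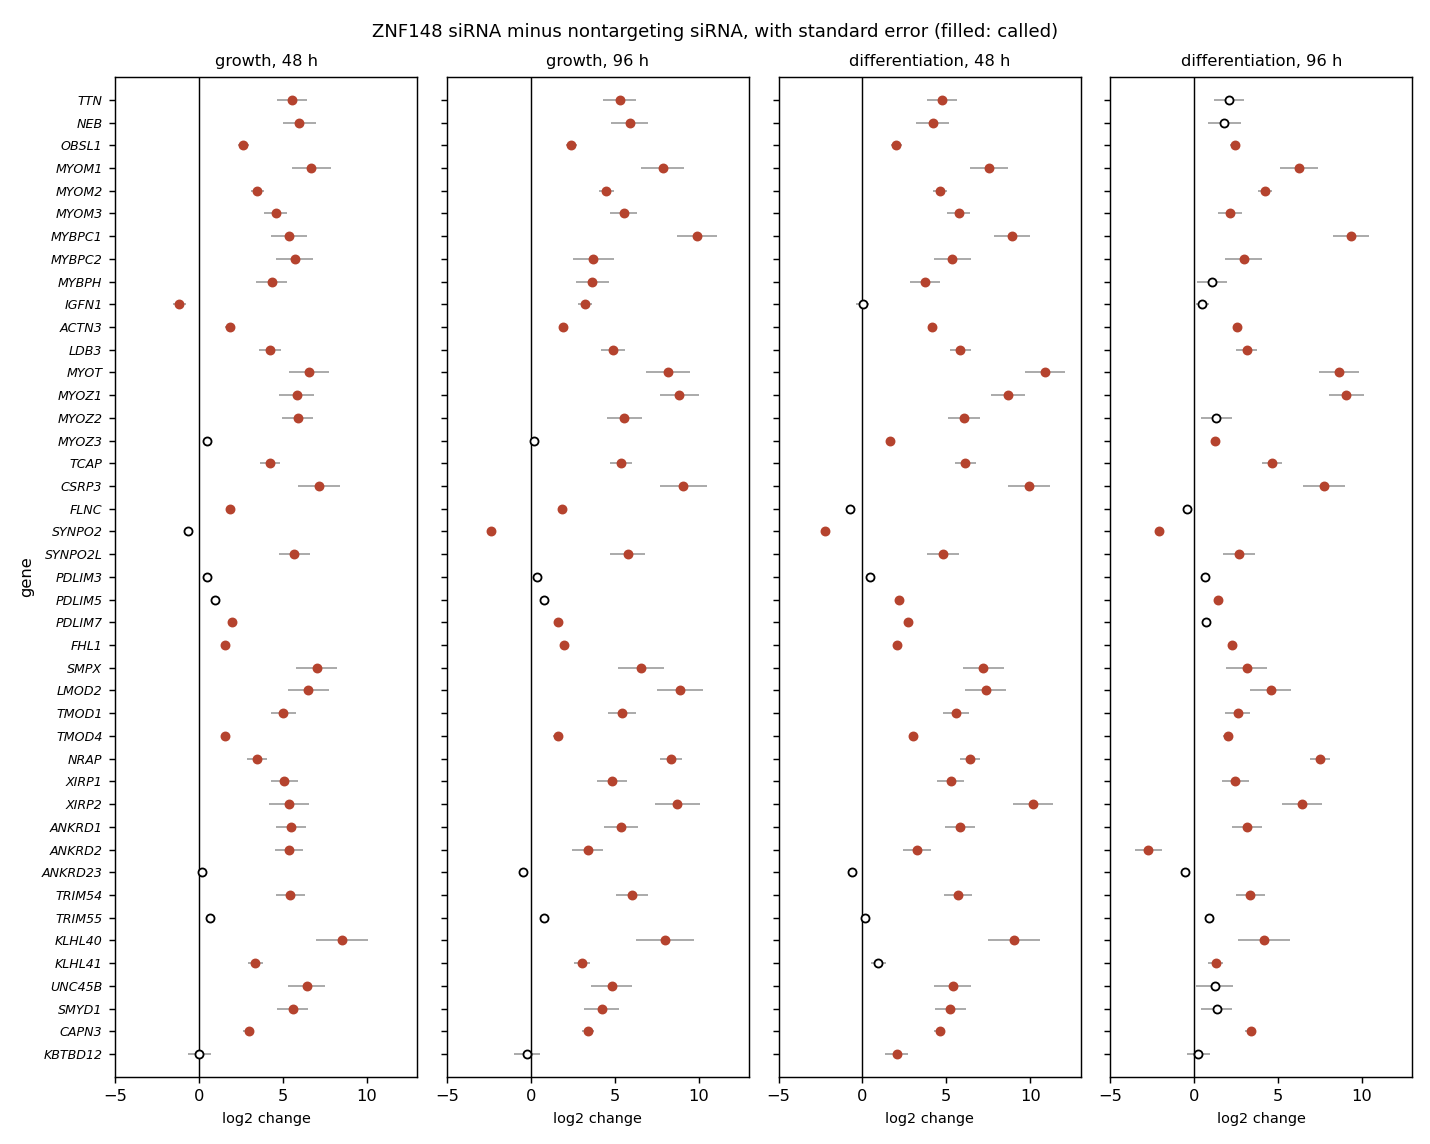
Log2 change with ZNF148 siRNA against nontargeting siRNA (horizontal axis) for 43 genes (vertical axis, ordered by role) in 4 comparisons from 48 h on, with the standard error of the fit as bars and called genes filled. Most points lie right of 0, SYNPO2 lies left of it in all 4 panels, and ANKRD2 lies at -2.73 in the last panel.

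SYNPO2, an actin-bundling Z-disc protein that smooth muscle also makes, was the one gene called lower in 3 knockdown comparisons. At 96 h in growth media it read 8.54 and 8.52 with nontargeting siRNA and 6.27, 6.23 and 6.06 with ZNF148 siRNA, a 5.07-fold fall (log2 change -2.34, SE 0.151, adjusted p = 5.63e-11). In differentiation media it fell from 9.83, 9.65 and 9.24 to 7.19, 7.35 and 7.40 at 48 h. At 96 h it fell from 7.66, 7.86 and 7.69 to 5.52, 5.47 and 5.92. Its relative SYNPO2L was called higher in all 3 of these comparisons. A second SYNPO2 probe, above background on 5 of 29 arrays, read -0.28 at 96 h in growth media and was not called, and it was called lower at 48 and 96 h in differentiation media, at -2.02 and -1.88.

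IGFN1 had its own course. It read 4.80 and 4.36 with nontargeting siRNA and 7.57, 7.88 and 7.99 with ZNF148 siRNA at 96 h in growth media, and was called higher (9.41-fold, log2 change 3.23, SE 0.433, adjusted p = 2.18e-06). At 48 h in growth media it was called lower, but 0 of 3 ZNF148 siRNA arrays and 1 of 3 nontargeting arrays were above background. In differentiation media it differed by 0.01 and 0.47 and was not called. A second IGFN1 probe, above background on 7 of 29 arrays, was called in no knockdown comparison. It read 1.98 at 96 h in growth media (adjusted p = 0.384). MYOZ3 was also apart from its family. After its rise at 24 h it differed by 0.49 and 0.17 in growth media, and in differentiation media it rose by 1.62 at 48 h and 1.26 at 96 h.

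With the probes described here, PDLIM3, TRIM55 and ANKRD23 were called in no knockdown comparison. PDLIM3, a PDZ-LIM protein that binds alpha-actinin, was between 13.92 and 16.47 on all arrays and differed by -0.54 at 24 h and by 0.36 to 0.62 later. TRIM55, the ligase MuRF2, differed by -0.39 at 24 h and by 0.17 to 0.88 later, with groups apart in every comparison but the one at 48 h in differentiation media. Both of these probes had adjusted p under the threshold in each comparison and missed the 2-fold limit. A second TRIM55 probe, above background on all 29 arrays, read -0.30 at 24 h. It read 0.32 and 0.02 at 48 and 96 h in growth media, and -0.47 and -0.08 in differentiation media. The TRIM55 probes thus did not give the same direction at both times in differentiation media. A second PDLIM3 probe, above background on all 29 arrays, was called higher in 3 of the 5 comparisons, at 1.12 at 48 h in growth media and at 1.45 and 1.41 at 48 and 96 h in differentiation media. ANKRD23 differed by 0.15 or less in size at 24 and 48 h in growth media and by -0.45 to -0.62 in the other 3 comparisons. FLNC, the filamin of striated muscle, was called higher in growth media only, at 1.86 and 1.85, and differed by -0.76 and -0.42 in differentiation media.

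**Figure D4:**
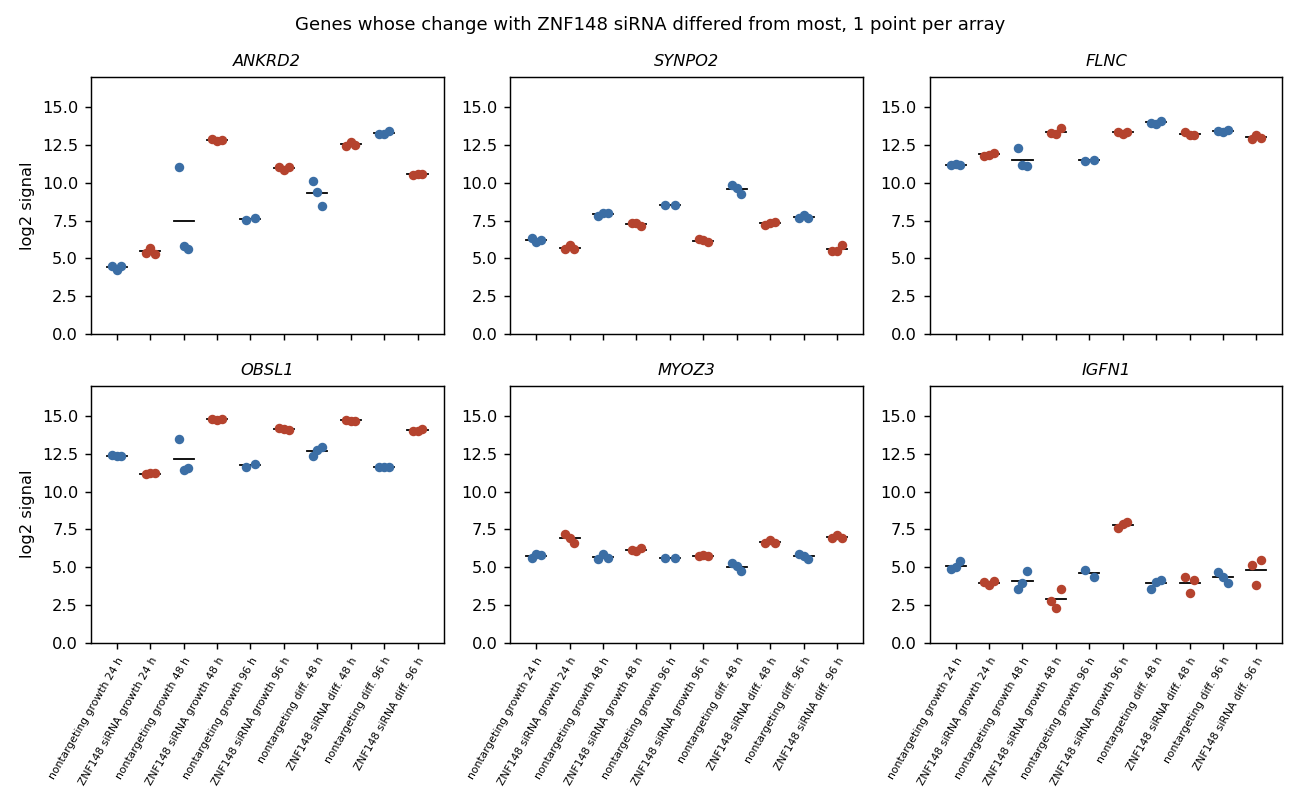
Quantile-normalized log2 signal (vertical axis) of 6 genes in each of 10 groups (horizontal axis), 1 point per array, blue for nontargeting siRNA and red for ZNF148 siRNA, with the group mean as a line. ANKRD2 is above its control at 96 h in growth media and below it at 96 h in differentiation media, and SYNPO2 is below its control in every pair.

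Differentiation media alone also raised part of the list in cells with nontargeting siRNA. At 96 h, 20 genes were called higher and 0 lower, against 6.82% and 8.27% of all genes, with a median change of 1.95. With the array that stood apart left out, 25 were called higher and 0 lower, against 7.29% and 8.3%. No slide held both groups of this comparison, and with slide as a block the count was 10 higher and the median 1.40. Without nontargeting replicate 1 or 2 of the growth media group, 10 or 12 genes were called. At 48 h, 4 genes were called higher (FLNC, KLHL41, SYNPO2 and CAPN3) and 2 lower (ACTN3 and XIRP2), against 7.79% and 8.25%. This count turned on the array that stood apart. Without it 23 genes were called higher and 1 lower, against 9.16% and 8.59%, and the median change was 1.49 in place of 0.25. Without replicate 2 of the same nontargeting group, 3 were called higher and 7 lower. Within slides the median was -3.07 on the slide with that array and 1.66 and 1.42 on the others. Between 48 and 96 h in differentiation media, 17 genes rose and 2 fell with nontargeting siRNA, against 5.76% and 4.22%, with a median change of 1.46, and 1.51 and 1.42 within slides. Leaving out the array that stood apart, 24 rose and 2 fell, against 6.16% and 4.24%. The count of 19 was 8 without replicate 3 at 48 h, and 12 or 11 without replicate 2 or 3 at 96 h.

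ANKRD2 had the largest of these changes with media at 96 h, from 7.57 and 7.65 in growth media to 13.26, 13.21 and 13.43 in differentiation media (51.8-fold, log2 change 5.69, SE 0.917, adjusted p = 3.82e-05). MYOZ2, below background in growth media, was at least 16.8-fold higher. TTN rose 17.7-fold, NEB 24.4-fold, KLHL40 25.6-fold, UNC45B 18.6-fold and SMYD1 17.3-fold. FLNC rose early, by 2.46 at 48 h and 1.95 at 96 h. OBSL1 and SYNPO2 were the 2 genes that fell between 48 and 96 h in differentiation media, by 1.07 and 1.84.

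Several genes called higher with ZNF148 siRNA, some with large and some with smaller changes, were not called with differentiation media at 96 h. The 2 comparisons at 96 h in growth media share their nontargeting arrays, and their values are given side by side. MYBPC1 was called higher with ZNF148 siRNA, at least 340-fold, and with differentiation media its mean went from 2.60 ± 0.153 (SD, n = 2) to 4.06 ± 2.19 (n = 3). MYOZ1, at least 162-fold higher with ZNF148 siRNA, went from 2.60 ± 0.309 to 3.43 ± 1.93 with differentiation media. MYOT, at least 173-fold higher with ZNF148 siRNA, went from 3.43 ± 1.84 to 4.66 ± 1.74. The media changes of these 3 had adjusted p of 0.41, 0.667 and 0.552. CSRP3 differed by 2.06 with media (adjusted p = 0.297), TCAP by 0.91 (adjusted p = 0.352) and FHL1 by 0.32 (adjusted p = 0.329). Without the array that stood apart CSRP3 was called higher (log2 change 2.06, adjusted p = 0.000252), and TCAP, at 0.91, had an adjusted p of 5.63e-05 and missed the 2-fold limit. FHL1, MYBPC1, MYOZ1 and MYOT were not called in that fit either, with adjusted p of 0.25, 0.222, 0.375 and 0.181.

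**Figure D5:**
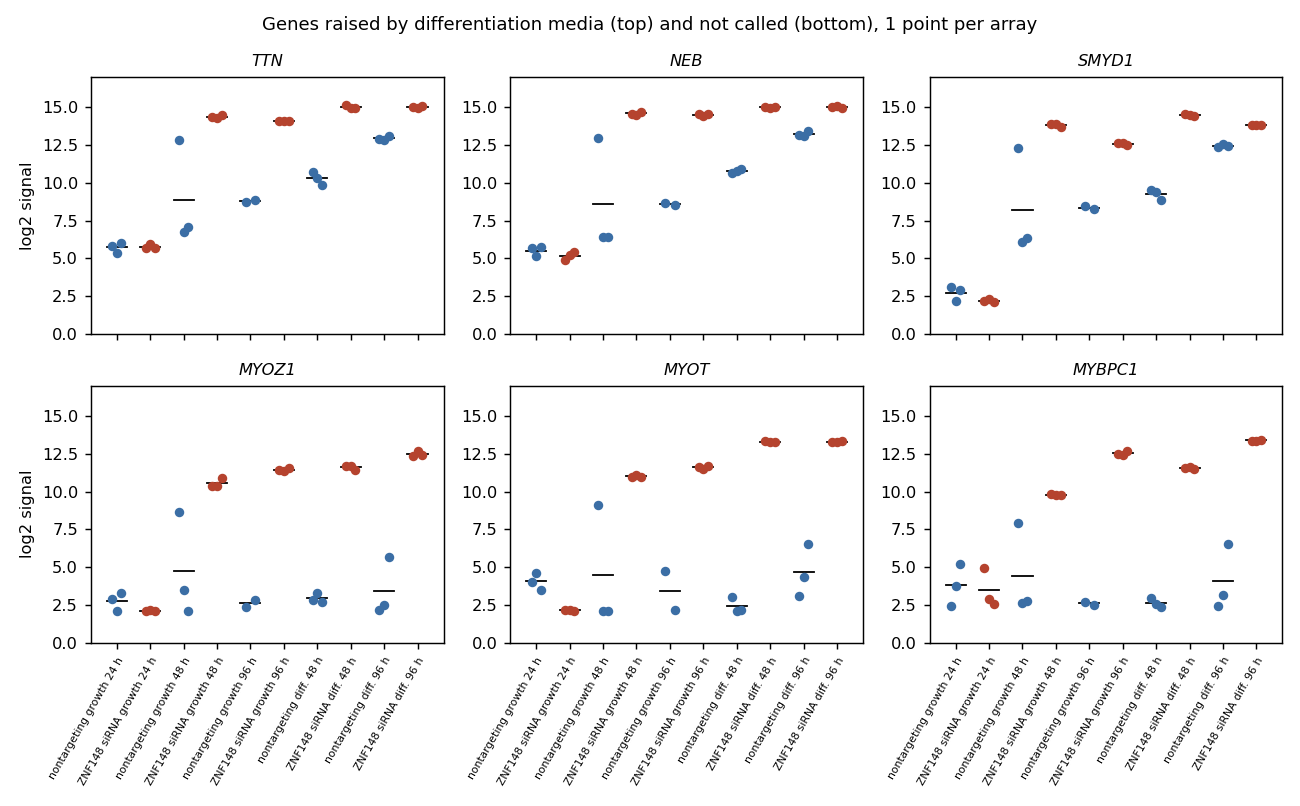
Quantile-normalized log2 signal (vertical axis) of 6 genes in each of 10 groups (horizontal axis), 1 point per array, blue for nontargeting siRNA and red for ZNF148 siRNA, with the group mean as a line. TTN, NEB and SMYD1 (top) climb in the blue groups of differentiation media, whereas MYOZ1, MYOT and MYBPC1 (bottom) have blue means of 3.43, 4.66 and 4.06 at 96 h there.

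In cells with ZNF148 siRNA, few genes were called with the change of media, although most of the list read higher in differentiation media. At 48 h all differentiation arrays lay above all growth arrays for 36 of the 43 genes and below for 3. Among all 18338 genes the numbers were 3780 and 3799. At 96 h this held for 31 and 4 of the list, against 3818 and 5178 of all genes. At 48 h, 5 genes were called higher and 0 lower, against 1.13% and 2.85% of all genes, with a median change of 0.55 (0.63, 0.47 and 0.58 within slides). Without replicate 1 of either group, 3 were called higher, and without the array that stood apart 7 were called higher and 0 lower, against 1.43% and 3%. At 96 h, 2 were called higher and 1 lower, against 1.44% and 4.94%, with a median change of 0.53 (0.54 on each of 2 slides). The counts at 96 h were 6 higher and 1 lower without the array that stood apart, against 1.73% and 5.05%. CAPN3, the protease, was called higher at both times, by 2.63 at 48 h, from 9.57 ± 0.128 to 12.20 ± 0.0467 (SD, n = 3), and by 1.52 at 96 h. TMOD4 changed by 2.01, NRAP by 1.78 and MYOM2 by 1.76 at 48 h. KBTBD12, the fifth gene called at 48 h, was above background on 1 of 3 arrays in differentiation media and on 0 of 3 in growth media, and has no fold. MYOZ3 was called higher at 96 h, by 1.20, and IGFN1 lower, by -3.01.

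The knockdown effects themselves were then compared. Between 24 and 96 h in growth media the effect grew for 35 genes and became more negative for 1, SYNPO2, against 11.7% and 11.3% of all genes. TTN differed by 5.24 between the 2 times (SE 1.34, adjusted p = 0.00345). ANKRD2 differed by 2.37 and was not called (adjusted p = 0.15). Without the array that stood apart the effect grew for 37 genes and became more negative for 1, against 12% and 11.3%, and ANKRD2 was called with a difference of 2.37 (adjusted p = 2.15e-05).

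Between media the effect was tested at each time, as the signed effect in differentiation media minus that in growth media. A larger effect here is a more positive one, and a smaller effect is a less positive or more negative one. At 48 h it was larger in differentiation media for 7 genes and smaller for 3, against 8.15% and 9.1% of all genes. ACTN3 (2.35), CAPN3 (1.63), PDLIM5 (1.21) and MYOZ3 (1.14) were among the 7, and FLNC (-2.62), KLHL41 (-2.40) and SYNPO2 (-1.62) were the 3. For SYNPO2 this was a stronger fall, with a change of -2.26 in differentiation media and of -0.63 in growth media. FLNC changed by 1.86 in growth media and by -0.76 in differentiation media, where it was not called. Without the array that stood apart, 6 were larger and 18 smaller, against 8.31% and 10.3%, and without replicate 3 of the same group 13 were larger and 3 smaller. At 96 h the effect was larger for 1 gene, MYOZ3, and smaller for 6 (NEB, MYOM3, MYOZ2, FLNC, ANKRD2 and IGFN1), against 5.57% and 6.94%. ANKRD2 had the largest such difference, -6.13 (SE 1.23, adjusted p = 0.000768). Without that array 1 was larger and 21 smaller, against 5.71% and 8.09%, and the median difference was -1.60 either way. Without nontargeting replicate 1 or 2 at 96 h in growth media, 1 was larger and 3 smaller in each case.

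The contractile genes of the sarcomere moved in the same direction. Of 21 contractile filament genes (myosins, actins, troponins and tropomyosins), 19 were called higher and 0 lower at 48 and at 96 h in growth media, with medians of 5.34 and 5.58. By contrast, of 25 relatives of the listed genes that act outside the sarcomere (nonmuscle actinins, filamins, tropomodulins and PDZ-LIM proteins among them), 5 were called higher and 10 lower at 96 h in growth media, with a median of -0.62.

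Markers of other states moved with the groups. The 5 cycling genes were all called lower in growth media from 48 h on and in differentiation media at 96 h, and their summed log2 signal at 96 h in growth media was 14.26 to 14.36 with nontargeting siRNA and 9.87 to 9.94 with ZNF148 siRNA. The 6 interferon genes were all called higher at 96 h in both media, with sums of 13.36 to 13.44 against 19.06 to 19.21 in growth media, and at 48 h 4 of the 6 were called higher in growth media (median change 1.30) and 1 in differentiation media (median change 0.60). The scaffold genes had median changes of 4.56 and 4.80 in these 2 comparisons. Of the smooth muscle markers 4 of 4 were called higher at 96 h in growth media, of the cardiac markers 3 of 5, and of the fibroblast markers 1 was called higher and 2 lower of 6. The cardiac factor TBX5 was below background on every array. The part of these markers in the changes of the scaffold genes was not tested.

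Of the 43 genes, 16 had more than 1 tested probe. All probes of a gene gave the same call for 14 of the 16 at 24 h, 12 at both later times in growth media, and 13 at both times in differentiation media. For TTN, 3 further probes were called higher at 96 h in differentiation media, at 1.98, 3.14 and 3.15, where the probe described above was not called.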

How the data were processed

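RNA of 29 LHCN-M2 cultures was hybridized to 1-colour Agilent arrays with 62976 spots. The submitters' processing notes name version 10.7.3.1 of Agilent Feature Extraction, with which the authors read the scans. The deposited intensity is the background-subtracted, linear signal of each spot, not scaled between arrays, with other deposited columns that mark spots well above background and outlier spots. The authors also deposited a matrix of quantile-normalized log2 values, and each of its 29 columns matched its own array (r at least 0.9951). The arrays per group limit the precision.

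R 4.3.3 was used with limma 3.58.1 and version 1.17.8 of data.table. Spots of controls (2075) or with an outlier mark were dropped, signals were log2-transformed and the spots of each of 58201 probes averaged, and values were quantile-normalized. Probes had to be well above background on 2 or more arrays, which left 38714, and were tested with limma (lmFit, eBayes, two-sided) in 1 fit with 10 group means, with Benjamini-Hochberg adjustment over all of them. Calls needed an adjusted p under 0.05 and more than 2-fold. RefSeq accessions named 31104 probes of 22439 genes. The probe with the highest mean in the deposited matrix stands for a gene, and shares of all genes count 18338 chosen probes. Where a group had no array above background, the fold is a bound against the lowest signal well above background on each array. Groups came from the labels. The fit was tested on simulated data.

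The genes and lists were chosen with earlier results of these data known. Values on every array are given for the targeted gene by its range, for up to 3 genes of each role with the largest called change at 96 h in growth media that exceeded background throughout both groups, for genes called at 24 h or against most of the list, and by ranges for genes never called. Other genes were named after their values were seen. Alternatives were other scalings, background correction (normexp, offset 50), filters, fits, probe choices and the methods' own test. No sequence of a protein was used here.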

Additional observations from a re-analysis of the deposited data

Results flagged for a closer look

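The effect of ZNF148 siRNA on the scaffold genes was compared between times and media by the test of the difference itself. Between 96 and 24 h in growth media it was called different for 36 genes. Of the list 81.4% were higher and 2.33% lower, against 11.7% and 11.3% of all genes. Between media at 48 h it was called for 10, with 16.3% higher and 6.98% lower, against 8.15% and 9.1%. Between media at 96 h it was called for 7, with 2.33% and 14%, against 5.57% and 6.94%. In this fit over all arrays the 2 counts between media lay nearer the shares of all genes. Leaving out replicate 1 of nontargeting siRNA at 48 h in growth media, these 2 counts were 24 (6 higher and 18 lower) and 22 (1 higher and 21 lower). The shares of all genes were then 8.31% and 10.3% at 48 h, and 5.71% and 8.09% at 96 h. Without that array the 18 and 21 lower of 43 genes thus lay well above the shares of all genes. Of the genes that were called in both directions, ANKRD2 had an effect at 96 h that was lower by -6.13 in differentiation than in growth media, on the log2 scale. OBSL1 had an effect higher by 3.59 at 96 than at 24 h in growth media, but its lower level at 24 h was seen with 1 of 2 probes. IGFN1 had an effect higher by 4.35 at 96 than at 24 h in growth media, and lower by -2.77 in differentiation than in growth media at 96 h, with levels near background in most groups. Its second probe was called in no knockdown comparison. Dixon's test for a single outlying array was not run, because no group had more than 3 arrays.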

How the results depend on the processing

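The counts of called genes in the knockdown comparisons from 48 h on stayed within 1.5 times of those reported under the alternatives, except at 48 h in growth media, where the count of 36 became 21 with the arrays of that comparison only, 23 with the methods' test and 5 with that test after adjustment. At 24 h the count of 3 became 1 with normexp background correction or with the mean of all probes of a gene, 5 with array weights, and 7 with the comparison's own arrays, without the array that stands apart, with either form of the methods' test or with no fold threshold. For media with nontargeting siRNA at 48 h the count of 6 became 24 without the array that stands apart, 19 with array weights, 10 with no fold threshold, 3 with the comparison's own arrays or the methods' test and 2 with that test adjusted. At 96 h the count of 20 became 10 with slide as a block. For media with ZNF148 siRNA at 48 h the count of 5 became 3 with no filter, 9 with the comparison's own arrays, the methods' test or no fold threshold, and 8 with the test adjusted. At 96 h the count of 3 became 9 with the comparison's own arrays or either form of the methods' test, and 7 without the array that stands apart or with no fold threshold. For the difference between media, the count of 10 at 48 h became 16 with array weights and 24 without that array, and the count of 7 at 96 h became 23 with its own arrays, 21 with array weights, 22 without that array and 4 with slide as a block. The array that stands apart is replicate 1 of nontargeting siRNA at 48 h in growth media, and fewer arrays or a smaller spread are part of how these fits are built; other causes were not tested.

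Leaving out the arrays of a comparison singly gave counts of 2 to 2 at 24 h, 35 to 37 and 36 to 37 at 48 and 96 h in growth media, and 36 to 37 and 26 to 27 at 48 and 96 h in differentiation media. For media the counts were 5 to 24 and 10 to 18 with nontargeting siRNA at 48 and 96 h, and 3 to 5 and 3 to 3 with ZNF148 siRNA. They were 8 to 18 between 48 and 96 h with nontargeting siRNA in differentiation media, 33 to 37 for the difference between times, and 8 to 24 and 4 to 6 for the difference between media at 48 and 96 h. The 8 came without replicate 3 of nontargeting siRNA at 48 h in differentiation media, and the 10 and the 4 without replicate 1 of its group at 96 h in growth media, which left 1 array there that was taken to vary like the other groups.

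With a replicate block the counts were within 1.5 times of those reported in every comparison (4 against 5 for media with ZNF148 siRNA at 48 h). Same-numbered arrays did not deviate together (correlations -0.14 to 0.12), so the numbers were not taken to pair the cultures. For ZNF148 siRNA at 48 h in growth media the labels give different numbers in the titles and the descriptions, and those of the titles were used. Single genes changed sign in 5 cases. With all probes averaged, PDLIM7 gave -0.17 and -0.58 at 48 h in growth and differentiation media and -0.22 between 48 and 96 h, and TRIM55 gave -0.15 at 48 h in differentiation media. ANKRD23 at 48 h in growth media gave -0.29 to 0.38 when arrays were left out singly, the lowest without replicate 1 of ZNF148 siRNA.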
